A study of Arabidopsis thaliana with 12 samples.

Results

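The 42 genes described here were higher on indole-3-butyric acid (IBA) than on DMSO in wild-type Col-0 root tips of Arabidopsis thaliana and lower on IBA than on DMSO in root tips of the triple mutant ibr1ibr3ibr10. They were chosen on the measured group means: each was named by a probe set for 1 gene whose symbol is the bare locus identifier, reached a mean of at least 4 on the log2 scale in its highest group, was at least 0.3 log2 units higher on IBA in Col-0, and was at least 0.3 log2 units lower on IBA in ibr1ibr3ibr10. Of 6867 genes that met the name and level conditions, 42 met both conditions on the changes. The loci AT1G34510 and AT1G72140 were left out by the rule. The sizes and directions of both IBA changes, and of the difference between them, are therefore a description of the choice and carry no test.

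Levels came from 12 Affymetrix ATH1 arrays in 4 groups of 3: ibr1ibr3ibr10 on 10 µM IBA, ibr1ibr3ibr10 on DMSO, Col-0 on 10 µM IBA and Col-0 on DMSO. Seedlings 3 days after germination had spent 6 h on the test medium before the last 4 mm or so of the primary root was cut off. The mutant is in the Col-0 background, and each array holds RNA pooled from at least 120 root tips of 1 independent biological replicate. Sample titles give 0 h for the DMSO groups and shorten the mutant's name, whereas the source labels, which were used, give 6 h on control medium and the triple mutant. The source labels of the Col-0 IBA samples also name DMSO in the medium used before transfer and those of the other 3 groups do not, while the treatment protocols name no DMSO there for any group. If the source labels hold, that difference and the IBA response of Col-0 cannot be told apart.

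IBA is a storage precursor of the auxin indole-3-acetic acid (IAA). Peroxisomes shorten its side chain by a beta-oxidation pathway in which IBR1, IBR3 and IBR10 take part, and the IAA that is released acts in root hair growth and lateral root formation. Auxin raises transcription by causing the breakdown of Aux/IAA repressors, and among its targets are GH3 genes, whose enzymes conjugate IAA to amino acids, and LBD genes, which start lateral roots. The annotation used here gives the 42 loci no gene name or product, so they are described by locus.

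The deposited values are log2 levels normalized by RMA, which brings the arrays of a run to a common distribution of probe intensities. Replicate arrays of 1 group correlated at r = 0.995 to 0.998 over probe sets, which are not independent. The 24 probe sets for spiked bacterial transcripts averaged 5.31, 5.51 and 4.96 on the Col-0 IBA arrays, against 4.78, 4.91 and 4.76 on the Col-0 DMSO arrays, and 4.78, 4.94 and 4.85 on the mutant IBA arrays, against 4.81, 5.02 and 5.03 on the mutant DMSO arrays. Scaling the arrays to these spikes lowers every Col-0 change by 0.44 and raises every mutant change by 0.10. Under that scaling 26 of the 42 members stayed above 0 in Col-0 and 16 lay below it, all 42 stayed below 0 in the mutant, and 8 met the rule. Statements below are on the deposited scale unless spike scaling is named.

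The mean level of the 42 members was 4.60, 4.71 and 4.59 on the 3 arrays of ibr1ibr3ibr10 on IBA, against 5.37, 5.32 and 5.37 on those of ibr1ibr3ibr10 on DMSO. In Col-0 it was 6.13, 6.26 and 6.18 on IBA, against 5.61, 5.44 and 5.48 on DMSO. The arrays of the 4 groups do not overlap in this mean, and the 2 IBA groups lie at its extremes with the DMSO groups between them. By single genes, 41 members had their highest group mean in Col-0 on IBA and 39 their lowest in ibr1ibr3ibr10 on IBA. Under the rule the highest group mean can only be that of Col-0 on IBA or of ibr1ibr3ibr10 on DMSO. The lowest can only be that of ibr1ibr3ibr10 on IBA or of Col-0 on DMSO. The order of the groups and these counts therefore follow largely from the choice. A transcript made in fewer cells and less transcript per cell cannot be told apart in whole root tips.

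**Figure D1:**
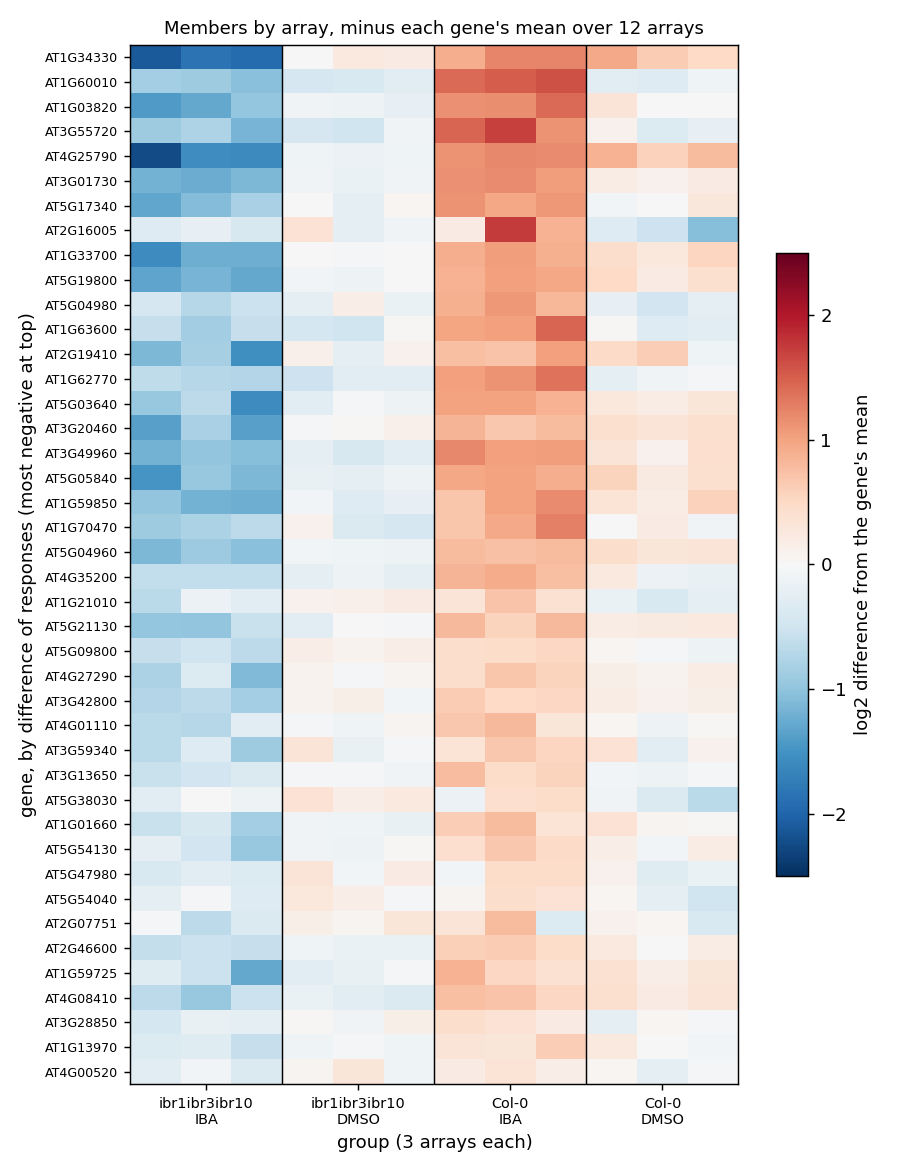
Log2 level of each of the 42 members on each of the 12 arrays, as the difference from that gene's mean over all arrays; rows are genes ordered by the difference between the 2 IBA changes, columns are arrays grouped as ibr1ibr3ibr10 on IBA, ibr1ibr3ibr10 on DMSO, Col-0 on IBA and Col-0 on DMSO. The mutant IBA arrays are the lowest for 39 members by group mean and the Col-0 IBA arrays the highest for 41, on the deposited scale. This order follows largely from the choice of members.

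Across members the median change was -0.56 in ibr1ibr3ibr10 (from -2.11 to -0.32) and 0.53 in Col-0 (from 0.31 to 1.74), where the medians over all 6867 genes were -0.04 and -0.05. In the mutant the 3 IBA arrays lay below the 3 DMSO arrays without overlap for 39 members, in Col-0 the 3 IBA arrays lay above the 3 DMSO arrays for 35, and both held for 32. The limma fit over all probe sets called 31 members lower on IBA in the mutant (Benjamini-Hochberg adjusted p under 0.05), where 5.68% of the 6867 genes were called, and 35 members higher in Col-0, where 14.2% were called. Both were called for 29 members, where 0.481% of the 6867 genes were called, and the mutant change was called below the Col-0 change for 40, where 4.11% were called. These counts follow from the choice of members. The share of the 6867 genes whose arrays lay apart between media was not counted.

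**Figure D2:**
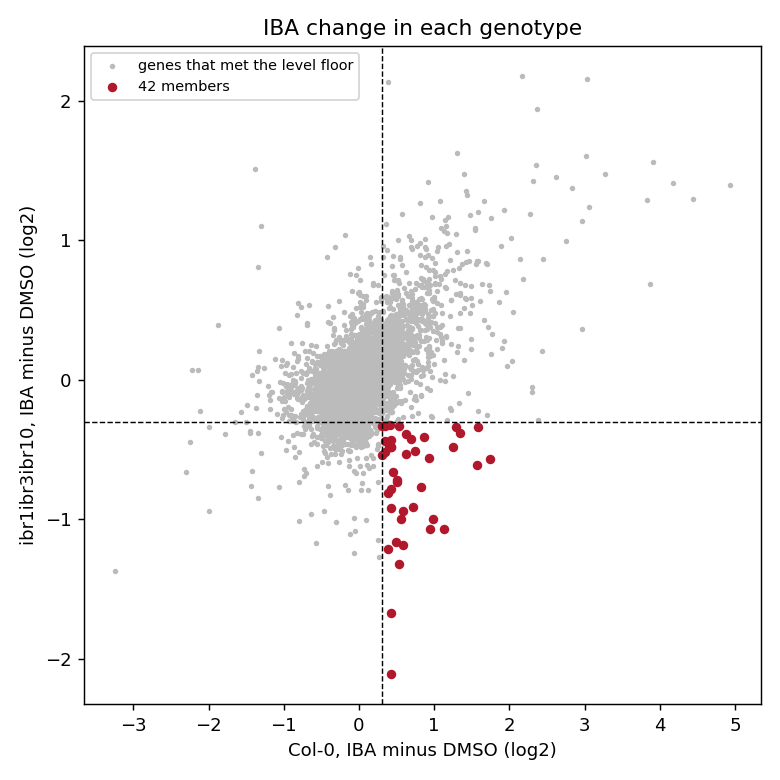
Change on IBA in Col-0 (x axis, log2) against change on IBA in ibr1ibr3ibr10 (y axis, log2) for the 6867 genes that met the level condition, with the 42 members in red and the thresholds of 0.3 as dashed lines. Members reach 1.74 in Col-0 and -2.11 in the mutant; with spike scaling 16 of them lie below 0 in Col-0.

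Of the 42 members, 16 changed by at least 0.5 log2 units in both genotypes. AT1G03820 was the 1 member with both changes above 1. It was at 3.55 or less on the 3 arrays of ibr1ibr3ibr10 on IBA and at 4.43, 4.38 and 4.30 on DMSO, and at 5.65, 5.68 and 5.93 in Col-0 on IBA and 4.84, 4.51 and 4.52 on DMSO. Every IBA array lay outside the range of the DMSO arrays of both genotypes, with changes of -1.07 (SE 0.12) in the mutant and 1.13 (SE 0.12) in Col-0.

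AT3G01730 had the smallest spread of all members with changes of this size, with a within-group SD of 0.06. Its levels were 4.18, 4.12 and 4.24 in ibr1ibr3ibr10 on IBA and 5.28, 5.20 and 5.28 on DMSO, against 6.50, 6.55 and 6.40 in Col-0 on IBA and 5.55, 5.46 and 5.57 on DMSO. The changes were of similar size, -1.07 (SE 0.07) in the mutant and 0.95 (SE 0.07) in Col-0, and no array of 1 group overlapped another group.

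AT1G60010 had the highest rise in Col-0 among the members. It was at 6.25, 6.20 and 6.05 in ibr1ibr3ibr10 on IBA and 6.67, 6.72 and 6.83 on DMSO, and at 8.51, 8.60 and 8.69 in Col-0 on IBA and 6.82, 6.77 and 6.99 on DMSO. The DMSO arrays of both genotypes overlapped, so the arrays of the genotypes were apart on IBA only, with changes of -0.57 (SE 0.09) in the mutant and 1.74 (SE 0.09) in Col-0. AT3G55720 had the same form, at 4.80, 4.93 and 4.53 in ibr1ibr3ibr10 on IBA and 5.27, 5.20 and 5.62 on DMSO, and at 7.15, 7.40 and 6.82 in Col-0 on IBA and 5.81, 5.35 and 5.50 on DMSO. Its changes were -0.61 (SE 0.16) in the mutant and 1.57 (SE 0.16) in Col-0, and its DMSO arrays overlapped between genotypes as well.

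**Figure D3:**
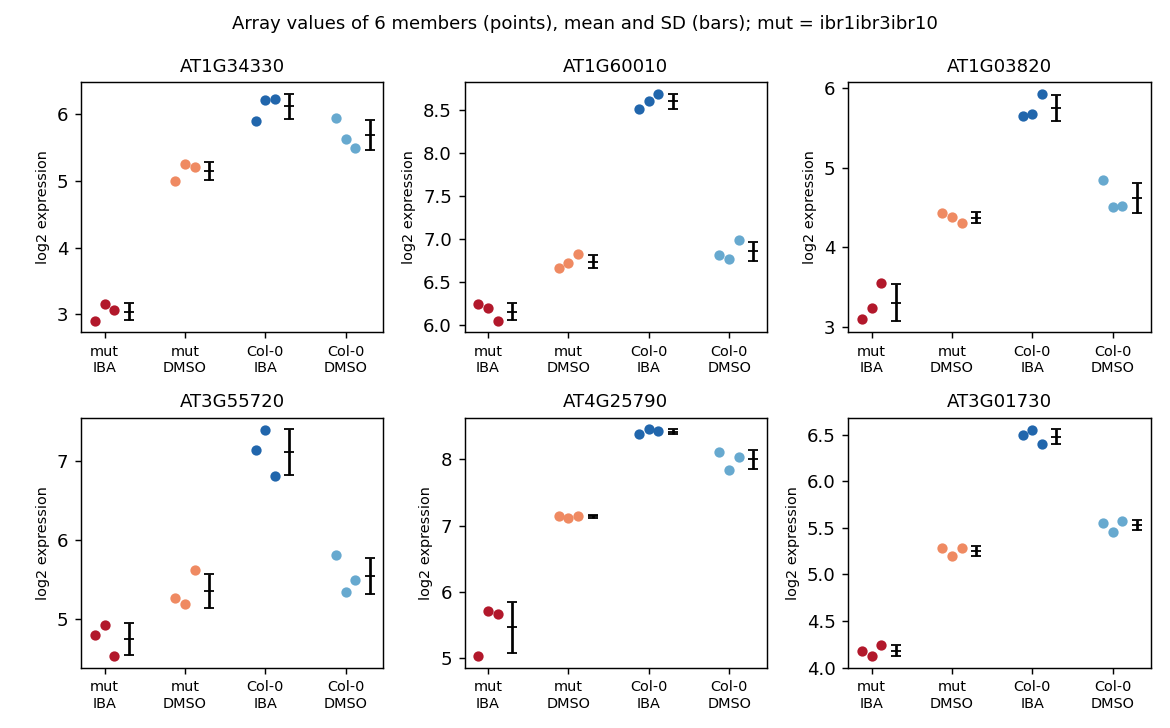
Log2 level on each array (points) with mean and SD of 3 arrays (bars) for the 6 members with the most negative difference of IBA changes, by group: ibr1ibr3ibr10 (mut) on IBA and DMSO, then Col-0 on IBA and DMSO. AT1G60010 and AT3G55720 differ between genotypes on IBA with overlapping DMSO arrays, while AT4G25790 is lower in the mutant on both media.

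AT3G49960 was the most abundant member of this kind, and was lower in the mutant on both media. It was at 7.52, 7.71 and 7.64 in ibr1ibr3ibr10 on IBA and 8.46, 8.29 and 8.44 on DMSO, against 9.90, 9.73 and 9.75 in Col-0 on IBA and 9.01, 8.80 and 9.12 on DMSO. The changes of -0.77 (SE 0.09) and 0.82 (SE 0.09) were nearly equal in size. AT1G70470, AT5G03640 and AT1G59850 differed between media by -0.56, -0.91 and -0.94 in the mutant and by 0.93, 0.72 and 0.59 in Col-0.

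AT5G19800 was at 4.50, 4.66 and 4.53 in ibr1ibr3ibr10 on IBA and 5.75, 5.69 and 5.80 on DMSO, and at 6.69, 6.84 and 6.78 in Col-0 on IBA and 6.32, 6.03 and 6.22 on DMSO. Its mutant change of -1.18 (SE 0.09) was about the size of that of AT1G33700, -1.32 (SE 0.10), and the Col-0 changes were 0.58 and 0.53. AT5G05840 averaged 3.23 on IBA and 4.23 on DMSO in the mutant, and 5.36 and 4.80 in Col-0. In all 3 genes the fall in the mutant was the larger of the 2 changes.

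AT5G09800 was at 3.91, 3.98 and 3.82 in ibr1ibr3ibr10 on IBA and 4.64, 4.57 and 4.65 on DMSO, and at 4.91, 4.93 and 5.00 in Col-0 on IBA and 4.53, 4.43 and 4.36 on DMSO. It differs from the genes above in that its mutant DMSO arrays all lay above its Col-0 DMSO arrays. AT1G21010 shares that order, with DMSO means of 5.12 in the mutant and 4.71 in Col-0. The remaining members with changes of at least 0.5 each way were AT4G01110 (-0.53 in the mutant, 0.62 in Col-0), AT5G21130 (-0.73 and 0.51) and AT5G17340. AT5G17340 had means of 2.13 on IBA and 3.13 on DMSO in the mutant, and 4.25 and 3.27 in Col-0. Both mutant means were dim, here a mean under 3.24, below which 30% of the probe sets lie; that is a rank and not a measured background. With means raised to that level its mutant change becomes 0.00. The mutant IBA mean of AT5G21130, 2.84, was dim too, and its mutant change becomes -0.32, so that 14 members keep changes of at least 0.5 each way.

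In 4 members the Col-0 change exceeded 1 while the mutant change stayed under 0.5. AT1G62770 was at 3.76, 3.70 and 3.67 in ibr1ibr3ibr10 on IBA and 3.89, 4.14 and 4.12 on DMSO, and at 5.43, 5.53 and 5.77 in Col-0 on IBA and 4.18, 4.31 and 4.35 on DMSO. Its changes were -0.34 (SE 0.10) and 1.29 (SE 0.10). AT5G04980 differed on IBA by -0.48 (SE 0.12) in the mutant and 1.25 (SE 0.12) in Col-0.

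AT1G63600, with -0.38 (SE 0.16) and 1.34 (SE 0.16), was dim in both mutant groups, at 2.83 ± 0.16 on IBA and 3.21 ± 0.29 on DMSO (SD, n = 3), and its mutant change becomes 0.00 with dim means raised. AT2G16005 was the most variable member, with a within-group SD of 0.46. It was at 3.64, 3.76 and 3.56 in ibr1ibr3ibr10 on IBA and 4.33, 3.74 and 3.89 on DMSO, and at 4.18, 5.71 and 4.84 in Col-0 on IBA and 3.64, 3.45 and 2.90 on DMSO. The mutant arrays overlapped between media, so its place among the members rests on a mutant difference of -0.34 (SE 0.29).

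In a further 4 members the mutant change exceeded 1 in size while the Col-0 change stayed under 0.5. AT1G34330, which the annotation lists as a transcribed pseudogene, was at 2.90, 3.16 and 3.07 in ibr1ibr3ibr10 on IBA and 5.00, 5.25 and 5.21 on DMSO, and at 5.90, 6.22 and 6.23 in Col-0 on IBA and 5.94, 5.63 and 5.49 on DMSO. The mutant IBA arrays stood far under every other array, while the Col-0 arrays overlapped between media. The changes were -2.11 (SE 0.13), or -1.91 with the dim mean raised, and 0.43 (SE 0.13).

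AT4G25790 was at 5.02, 5.71 and 5.66 in ibr1ibr3ibr10 on IBA and 7.15, 7.11 and 7.14 on DMSO, and at 8.38, 8.46 and 8.43 in Col-0 on IBA and 8.12, 7.84 and 8.04 on DMSO. The groups did not overlap, and the changes were -1.67 (SE 0.14) and 0.42 (SE 0.14). AT3G20460 differed on IBA by -1.21 (SE 0.12) and 0.39 (SE 0.12), and AT2G19410 by -1.16 (SE 0.19), or -0.83 with the dim mean raised, and 0.49 (SE 0.19). With spike scaling the Col-0 changes of AT1G34330 (-0.01), AT4G25790 (-0.02) and AT3G20460 (-0.05) lie just below 0 and that of AT2G19410 at 0.05, all within 1 SE of 0, whereas their mutant changes stay between -2.01 and -1.07.

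The remaining 18 members differed on IBA by -0.92 to -0.32 in the mutant and by 0.31 to 0.87 in Col-0. AT5G04960 was at 7.04, 7.26 and 7.12 in ibr1ibr3ibr10 on IBA and 8.09, 8.05 and 8.04 on DMSO, and at 8.96, 8.90 and 8.95 in Col-0 on IBA and 8.60, 8.47 and 8.48 on DMSO, with no overlap between groups. AT4G35200 was at 5.52 on each array of ibr1ibr3ibr10 on IBA and at 5.88, 6.00 and 5.90 on DMSO, and at 6.99, 7.06 and 6.89 in Col-0 on IBA and 6.38, 5.98 and 5.95 on DMSO. Its DMSO arrays overlapped between genotypes. AT3G13650, an abundant transcript, was at 7.83, 7.91 and 8.02 in ibr1ibr3ibr10 on IBA and 8.35, 8.36 and 8.30 on DMSO, and at 9.16, 8.85 and 8.94 in Col-0 on IBA and 8.31, 8.26 and 8.33 on DMSO. The genotypes had nearly the same level on DMSO and lay on either side of it on IBA. AT2G46600 and AT3G42800 differed on IBA by -0.43 and -0.81 in the mutant and by 0.43 and 0.39 in Col-0. AT4G27290, AT3G59340, AT1G13970, AT3G28850, AT5G38030, AT5G47980, AT5G54040, AT5G54130, AT1G01660, AT4G00520, AT1G59725, AT4G08410 and AT2G07751 make up the rest. AT4G08410 and AT2G07751 are read by probe sets of the x and s types, which can take up related transcripts. The values of AT2G07751 overlapped between media in Col-0, at 6.23, 6.70 and 5.56 on IBA and 6.01, 5.94 and 5.52 on DMSO.

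Members just inside the threshold in Col-0 were AT1G59725, AT4G00520 and AT2G07751, with changes of 0.31, 0.31 and 0.34. Just outside it were AT3G44400 and AT5G17040, both at 0.298, and AT1G23160 at 0.260, the last with a mutant change of -1.27. In the mutant AT3G28850, AT5G54040 and AT4G00520 were just inside at -0.32, -0.33 and -0.33, and AT1G68400, AT2G17070 and AT5G40910 just outside at -0.300 (short of the threshold before rounding), -0.295 and -0.292. The distances from the threshold are smaller than the standard errors of the changes, whose median over members was 0.13 in Col-0.

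The rule was also applied to 2 replicate numbers at a time, and both changes were read from the left-out arrays of the same series. With replicate 1 left out, 53 genes were chosen, and in the left-out arrays 44 of them (83.0%) were lower on IBA in ibr1ibr3ibr10 and higher on IBA in Col-0. With replicate 2 left out it was 36 of 44 genes (81.8%), and with replicate 3 left out 45 of 54 (83.3%). Among all genes that met the level condition in the arrays used for the choice the shares were 18.6%, 20.3% and 14.7%. Both left-out changes passed 0.3 for 24, 24 and 25 of the chosen genes, or 45.3%, 54.5% and 46.3%, against 0.988%, 1.16% and 0.989% of all genes at that level. The median left-out changes of the chosen genes were -0.52, -0.40 and -0.43 in the mutant and 0.36, 0.76 and 0.46 in Col-0. The left-out arrays are on the deposited scale as well. They may have been normalized together with the arrays used for the choice, and the rule was set with results of all arrays known. The shares therefore describe how far both directions recurred between replicate numbers of this series, and not in independent data. For every replicate number the spikes were higher on the Col-0 IBA array than on the Col-0 DMSO array, so left-out arrays share that offset. The left-out changes were not read with spike scaling. The chosen sets shared 37, 32 and 33 genes with the 42 members.

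**Figure D4:**
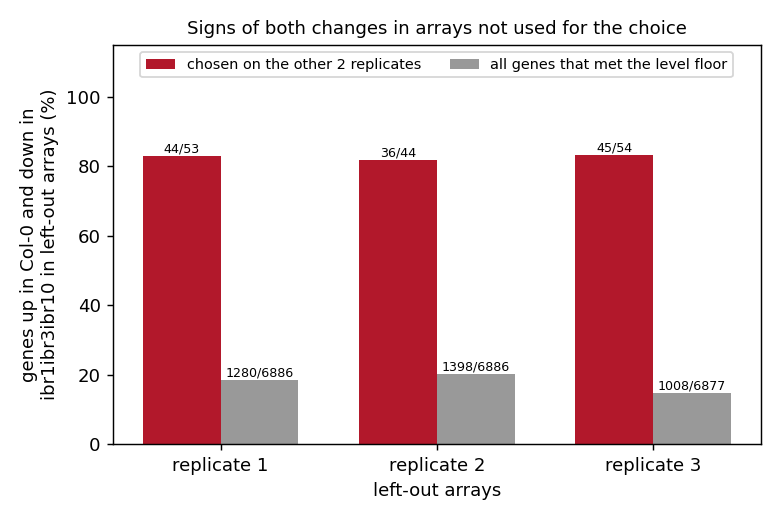
Share of genes (y axis, percent) that were lower on IBA in ibr1ibr3ibr10 and higher on IBA in Col-0 in the left-out arrays, for genes chosen on the other replicates (red) and for all genes that met the level condition (grey), by left-out replicate number; labels give counts. The red bars stand at 81.8% to 83.3% and the grey bars at 14.7% to 20.3%.

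The mean of both mutant groups minus the mean of both Col-0 groups is not free of the choice, since it equals the genotype difference on DMSO plus 0.5 times the difference between the IBA changes. Its values and calls are therefore given as a description. It was below 0 for 41 of 42 members, with a median of -0.91 against -0.01 over the 6867 genes. The fit called 35 members lower in ibr1ibr3ibr10 and 0 higher (adjusted p under 0.05), where 4.70% of the 6867 genes were called lower and 7.86% higher. Called falls of at least 0.5 were seen for 32 members, where 1.67% of the 6867 genes had one, and called falls of at least 1 for 18, where 0.568% had one. The median of 0.5 times the members' difference of IBA changes was -0.65 alone, and the DMSO part was the more negative of the 2 parts in 2 members, so these counts follow largely from the choice.

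The lowest members by this measure were AT4G25790 at -1.91 (SE 0.10), AT1G34330 at -1.81 (SE 0.09), AT3G49960 at -1.37 (SE 0.07), AT1G33700 at -1.36 (SE 0.07) and AT1G03820 at -1.36 (SE 0.09). The smallest called differences were those of AT3G28850 at -0.26 (SE 0.07), AT5G09800 at -0.43, AT1G13970 at -0.49, AT3G13650 at -0.51 and AT4G01110 at -0.58. The call of AT3G28850 was lost on leaving out any 1 of 8 arrays, with a replicate block within each medium and with spike scaling, and those of AT5G09800 and AT1G13970 were lost with spike scaling. The 7 members not called were AT2G16005 (-0.30), AT1G21010 (-0.21), AT2G07751 (-0.19), AT5G47980 (-0.17), AT4G00520 (-0.15), AT5G54040 (-0.06) and AT5G38030 (0.13).

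**Figure D5:**
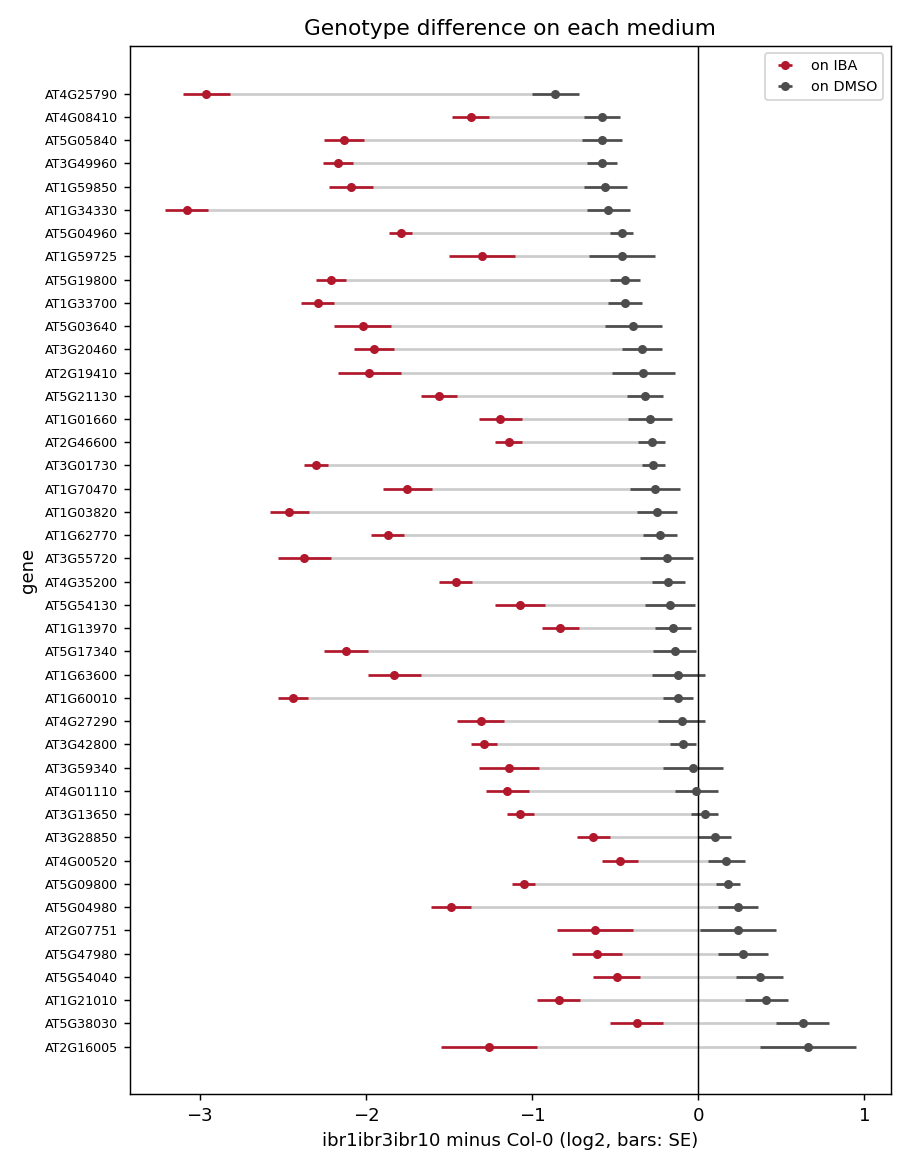
Genotype difference, ibr1ibr3ibr10 minus Col-0 (x axis, log2, bars are SE), of each of the 42 members on IBA (red) and on DMSO (grey), ordered by the difference on DMSO. On IBA all 42 differences lie below 0 on the deposited scale, and on DMSO 31 lie below 0 and 11 above.

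On IBA all 42 members were lower in ibr1ibr3ibr10, with a median difference of -1.48. The fit called 40 of them lower and 0 higher, where 5.96% of the 6867 genes were called lower and 8.37% higher, and this follows from the choice. On DMSO, without added IBA, 31 members were lower in ibr1ibr3ibr10 than in Col-0 and 11 were higher, with a median difference of -0.18 against -0.01 over the 6867 genes. Chance low values in Col-0 on DMSO and chance high values in the mutant on DMSO both favour entry into the list, so the choice leans towards higher mutant levels on this medium, and the counts that follow are a description. The fit called 9 members lower in the mutant on DMSO and 0 higher, where 0.786% of the 6867 genes were called lower and 2.27% higher. For 19 members the 3 mutant DMSO arrays all lay below the 3 Col-0 DMSO arrays and for 4 they all lay above them, against 12.6% and 12.4% of the 6867 genes. The largest such differences were those of AT4G25790 (-0.86, SE 0.14), AT4G08410 (-0.58, SE 0.11), AT5G05840 (-0.58, SE 0.12), AT3G49960 (-0.58, SE 0.09) and AT1G59850 (-0.56, SE 0.13).

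The rule puts IBA means below DMSO means in the mutant and above them in Col-0. Members apart on DMSO are thus nearly bound to be apart over all arrays. The same 19 members had all 6 mutant arrays, on either medium, below all 6 Col-0 arrays. Of the 6867 genes 1.49% did, and the members' count follows largely from the choice. These 19 members include AT1G34330, AT1G03820, AT4G25790, AT3G01730, AT1G33700, AT5G19800, AT1G62770, AT3G49960, AT5G05840 and AT5G04960. At the other end, AT2G16005, AT5G38030, AT1G21010 and AT5G54040 were higher in the mutant on DMSO by 0.66 (SE 0.29), 0.63 (SE 0.16), 0.41 (SE 0.13) and 0.37 (SE 0.14) while on IBA their differences were -1.26, -0.37, -0.84 and -0.49, though none of the 4 was called on DMSO and the IBA arrays of AT5G38030 overlapped between genotypes. These 4 are among the 7 members not called in the averaged difference.

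Replicate arrays also differed in the level of the members. In Col-0 on DMSO 35 of 42 members lay above their group mean on replicate 1 and 8 of 42 on replicate 2, with mean deviations of 0.10 and -0.07 log2 units, where the 6867 genes deviated by 0.01 and -0.03. The share of the 6867 genes above their group mean on these arrays was not counted. Each of the members' mean deviations is smaller than the differences between the group means of the members. The members averaged 5.61 and 5.44 on Col-0 DMSO replicates 1 and 2, however, and 5.37, 5.32 and 5.37 on the mutant DMSO arrays. The spread between Col-0 DMSO arrays was thus about as wide as the DMSO gap between genotypes.

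Genes of known function in auxin response were set beside the members. Of 9 listed genes that inactivate auxin 6 had a probe set that names 1 gene. On IBA 2 of the 6 fell and 1 rose in ibr1ibr3ibr10, and 5 rose and 0 fell in Col-0. Of all 22746 tested probe sets, 881 were called lower and 1248 higher in the mutant, and 2758 higher and 2587 lower in Col-0. GH3.5 (WES1), an IAA-amino acid conjugating enzyme, averaged 4.91 ± 0.03 on IBA and 6.01 ± 0.21 on DMSO in the mutant, and 8.38 ± 0.13 and 6.06 ± 0.15 in Col-0 (SD, n = 3), which is the members' pattern. GH3.3, of the same family, differed on IBA by -0.41 (SE 0.18) in the mutant, where it was dim on both media and the change did not pass, and by 5.31 (SE 0.18) in Col-0. The 1 gene that rose in both genotypes was DAO1, an IAA oxidase gene, by 1.07 in the mutant and 1.55 in Col-0. With spike scaling 1 of the 6 fell and 1 rose in the mutant and 5 rose in Col-0, as GH3.17 did not pass in the mutant. Over all tested probe sets that scaling called 149 lower and 798 higher in the mutant, and 723 higher and 16287 lower in Col-0.

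Of 4 measured genes of lateral root initiation, from 9 listed, 2 fell in the mutant and all 4 rose in Col-0. Of all 22746 tested probe sets, as given above, 881 were called lower in the mutant and 2758 higher in Col-0. LBD16, which encodes a regulator of the first founder cell divisions, showed the members' pattern with -0.77 (SE 0.10) in the mutant and 1.47 (SE 0.10) in Col-0. LBD29, of the same family, differed on IBA by -0.56 (SE 0.16) in the mutant, where both means were dim, and by 1.32 (SE 0.16) in Col-0. With spike scaling 1 of the 4, LBD16, fell in the mutant and 3 rose in Col-0, where ACR4 turned to -0.08. LBD29 did not pass in the mutant after quantile normalization either. Of 4 measured Aux/IAA repressor genes, from 9 listed, IAA31 fell in the mutant (-0.71) and was at 0.13 in Col-0, which did not pass, while IAA29, IAA30 and IAA18 rose in Col-0 and did not pass in the mutant. Of these, IAA31 was dim in the mutant on IBA, with a change of -0.32 once that mean is raised, and IAA29 and IAA30 were dim in both mutant groups. With spike scaling none of the 4 passed in Col-0, where IAA18 was at 0.14, IAA29 at 0.38 and IAA30 at 0.03, and IAA31 turned to -0.31.

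In the averaged genotype difference 4 of 6 auxin inactivation genes, 3 of 4 lateral root genes and 3 of 4 Aux/IAA genes were lower in ibr1ibr3ibr10, and 1 of the first list, DAO1, was higher (0.29, limma adjusted p = 0.0363). Of all 22746 tested probe sets, 886 were called lower and 1294 higher in this difference, and 308 lower with spike scaling. The DAO1 call was lost on leaving out any 1 of 9 arrays (limma adjusted p = 0.0526 to 0.0888). With spike scaling the counts of lower genes in the 3 lists were 3 of 6, 3 of 4 and 2 of 4, as GH3.17 (-0.13, limma adjusted p = 0.549) and IAA30 (-0.28, adjusted p = 0.152) were not called. The 4 with the smallest p in each list were GH3.5 (-1.76), GH3.3 (-2.71), GH3.1 (-1.02) and GH3.17 (-0.26), then LBD16 (-1.21), LBD29 (-1.15), PUCHI (-0.89) and ACR4 (-0.06, not called), then IAA29 (-0.58), IAA31 (-0.80), IAA30 (-0.42) and IAA18 (0.19, not called). With dim means raised the differences of LBD29, PUCHI, IAA29, IAA30, IAA31 and GH3.3 were -0.64, -0.61, -0.37, -0.27, -0.61 and -2.34, so their sizes are uncertain. The list medians, with no mean raised, were -0.64, -1.02 and -0.50, beside -0.91 for the members and -0.01 over all tested probe sets.

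Markers of single cell types were matched by annotated name for 2 of 13 listed root hair genes and 1 of 6 listed root cap genes. None of the listed endodermis, stem cell niche, xylem, phloem, green shoot or mitosis genes was matched. The annotation names no gene for 8730 of 22746 tested probe sets, so a gene without a match may still be on the array. Both measured root hair genes encode expansins, which loosen cell walls. EXPA18 was at 7.58 ± 0.05 on IBA and 8.18 ± 0.09 on DMSO in ibr1ibr3ibr10, against 8.89 ± 0.11 and 8.64 ± 0.15 in Col-0 (SD, n = 3), which is the members' order of groups. EXPA7 was at 7.99 and 8.24 in the mutant and 8.26 and 8.40 in Col-0. Both fell on IBA in the mutant and did not pass in Col-0, and both were lower in the mutant in the averaged difference, EXPA18 by -0.89 (SE 0.06, limma adjusted p = 5.6e-07) and EXPA7 by -0.21 (SE 0.05, adjusted p = 0.0151). With spike scaling neither passed on IBA in the mutant (EXPA18 -0.50, EXPA7 -0.16), EXPA18 turned to -0.19 in Col-0, EXPA7 fell there (-0.58), and the averaged call of EXPA7 was lost (-0.08, limma adjusted p = 0.696). In Col-0 EXPA7 also passed after median centring (-0.21) and EXPA18 after quantile normalization (0.28). The part of root hair number in the members' levels was not tested. RCPG, a polygalacturonase gene of the root cap, averaged 7.56 on IBA and 7.68 on DMSO in the mutant, which did not pass, and 6.90 and 7.90 in Col-0, where it fell.

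The members were spread over all 5 chromosomes. By chromosome 12, 4, 8, 6 and 11 of 41 with an entry in the RefSeq gene table lie on chromosomes 1 to 5, or 28.6%, 9.52%, 19%, 14.3% and 26.2% of the 42, against 26.2%, 14.4%, 20.5%, 14.2% and 24.5% of the 6867 genes. No member is next to another in the order of protein-coding genes in the RefSeq table, where the pseudogene AT1G34330 has no place. AT5G04960 and AT5G04980 are the 2 nearest, with 1 protein-coding gene between them. AT5G54040 and AT5G54130 are 12 steps apart in that order, AT1G59725 and AT1G59850 are 14, and AT1G60010 is 17 from AT1G59850. The median gene length of the members was 1753 bp, against 2327.5 bp for the 6867 genes. The median mean level of the members was 5.23, against 6.33, and their median within-group SD was 0.18, against 0.11. For 2 members a further probe set exists: that of AT5G54130 was lower on IBA by 0.28 (SE 0.15) in the mutant and higher by 0.21 (SE 0.15) in Col-0, while that of AT4G00520 was at 0.27 (SE 0.13) and 0.01 (SE 0.13), against the members' direction in the mutant.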

How the data were processed

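Per the submitters' processing notes, the deposited log2 values are RMA output of affy 1.40.0 in R. Whether all 12 arrays entered a single RMA run is not stated there. Per the labels' protocols, 100 ng of RNA was spiked, amplified from the 3' end, labelled with biotin and hybridised in 1 colour. Precision is limited by having 3 arrays in a group.

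Of 22810 probe sets 64 controls were left out. The platform annotation names 1 gene for 13513 of 22746 tested probe sets, several for 503 and none for 8730; symbols were updated through RefSeq's gene table for TAIR10.1, from which only names, gene types, lengths and neighbours were taken, and 77 were not in it. The probe set with the highest mean stood for a gene. limma 3.58.1 in R 4.3.3 fitted 4 group means (8 residual and 5.62 prior degrees of freedom) over all tested probe sets, with two-sided tests, Benjamini-Hochberg adjustment within a contrast and no filter; the steps were tested on simulated data.

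The members, lists and alternatives were chosen with earlier results of these data known. Named by rule were the 20 members with the most negative difference of changes, the 5 lowest and 5 highest called averaged differences, the 4 smallest spreads among changes of at least 0.5, the 3 genes on each side of a threshold, and up to 4 genes per list with 3 or more measured; other members complete the account. Same-numbered arrays correlated at -0.209 to 0.165 in their deviations over all pairs of groups. Within a medium these correlations were all above 0, at 0.0229 to 0.165. The main fit used no replicate block, and counts with a block are given among the alternatives. Alternatives were blocks, scalings, filters, eBayes settings, array weights, thresholds and leaving out arrays.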

Additional observations from a re-analysis of the deposited data

Results flagged for a closer look

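By the choice of members, the IBA change in ibr1ibr3ibr10 was below that in Col-0 for all 42, and the limma fit called this difference for 40; AT2G07751 and AT1G59725 were not called. The difference of changes was also called for genes that are no members: GH3.3 (-5.72), GH3.5 (-3.43), DAO2 (-2.60), LBD16 (-2.24), LBD29 (-1.88), GH3.1 (-1.41), PUCHI (-1.07), IAA29 (-0.99), EXPA18 (-0.85) and GH3.17 (-0.60) responded less or in the opposite direction in the mutant, and RCPG (0.88) had a smaller drop on IBA in the mutant.

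The spiked bacterial control probe sets, which enter no comparison, averaged 0.44 log2 units higher on the Col-0 IBA arrays than on the Col-0 DMSO arrays. Their part in the members' rise in Col-0 was not tested. With spike scaling the median Col-0 change of the members was 0.09 instead of 0.53, beside -0.48 over all probe sets. The median mutant change of the members under that scaling was -0.47 instead of -0.56. The 8 members that met the rule under it were AT1G60010, AT3G55720, AT5G04980, AT1G03820, AT3G01730, AT1G70470, AT4G35200 and AT3G49960; after AT1G60010 their Col-0 changes were 1.13, 0.81, 0.69, 0.51, 0.49, 0.43 and 0.38.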

How the results depend on the processing

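Thresholds of 0.2 and 0.5 gave 98 and 16 members in place of 42, spike scaling 8, and leaving out 1 array at a time 39 to 53. With spike scaling 12 members were called higher in Col-0 in place of 35 and 18 lower in the mutant in place of 31. Over all 22746 probe sets, that scaling called 3.18% higher in Col-0 and 149 lower in the mutant. Leaving out 1 array gave 26 to 36, 24 to 32 and 36 to 41 members called in the Col-0 change, the mutant change and their difference. In the averaged genotype difference 34 to 35 members were called lower and 0 higher on leaving out 1 array. With spike scaling 32 were called lower, where 308 of all 22746 probe sets were. A replicate block gave 33, 30, 40 and 35 for these 4 counts and a replicate block within each medium 36, 32, 41 and 34, none moved by over 1.5 times. Over all probe sets 2180 were called in the averaged difference, 1075 with 1 probe set per gene (fewer were tested), 1269 at an adjusted p under 0.01 and 1754 to 2551 without 1 array. Of the averaged calls 59.4% were higher, and 82.1% with spike scaling; in Col-0 51.6% were higher, 34.7% after median centring and 4.25% with spike scaling, and in the mutant 58.6% and 84.3% with spike scaling. The averaged difference turned from -0.06 to 0.07 for AT5G54040 with spike scaling and lay between -0.13 and 0.01 on leaving out 1 array (above 0 without Col-0 DMSO replicate 1), and from -0.06 to 0.08 for ACR4 with spike scaling; none of these was called. The cause of these shifts was not tested.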
